A study of Mus musculus with 10 samples.

Results

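The 8 genes described here, Gpnmb, Lgi2, Baiap2l2, Hpse, Bhlhe40, Etl4, Tmem51 and Gm1673, are rare in microglia and were picked from the 31053 genes of the matrix for higher summed microglial counts in APP/PS1 libraries or in disease-associated microglia (DAM). Values of these contrasts are therefore given as a description of genes selected on them, with no test. CD45+ cells were sorted from whole brains and profiled by droplet single-cell RNA sequencing with molecular barcodes, so that each count (UMI) stands for 1 captured RNA molecule. Each of the 10 libraries was a pool of 3 mice (2 males and 1 female). WT mice and NLRP3.KO mice, which lack Nlrp3 in the whole body, were sampled at 3, 6 and 9 months, and APP/PS1 mice and APP/PS1 NLRP3.KO mice at 3 and 9 months. All mice were on a C57BL/6 background, and the APP/PS1 transgenes, a Swedish mutant amyloid precursor protein and a mutant presenilin-1, are expressed in neurons of the central nervous system. Actinomycin D, an inhibitor of transcription, was present during dissociation of all brains. WT and NLRP3.KO libraries without transgene are called non-diseased, and each age was 1 batch, so that age and batch cannot be told apart.

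DAM are microglia that gather at amyloid plaques, turn down homeostatic genes such as P2ry12 and Tmem119 and turn up genes of lipid handling and lysosomes such as Apoe, Cst7 and Ctsd, partly under control of the receptor Trem2. The 8 genes have diverse roles. Gpnmb encodes a transmembrane glycoprotein of lysosomes that is high in lipid-laden macrophages, Hpse encodes heparanase, which cuts heparan sulfate chains, and Lgi2 encodes a secreted leucine-rich protein whose family binds ADAM receptors at synapses. Baiap2l2 encodes an I-BAR protein that curves membranes and is known from hair cell stereocilia, Bhlhe40 a basic helix-loop-helix repressor tied to the circadian clock and to activation of immune cells, Etl4 (sickle tail) a protein known from the notochord and intervertebral discs, Tmem51 a transmembrane protein and Gm1673 a small secreted protein.

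Microglia numbered 1755 to 8208 per library and held 9357431 to 35107144 UMIs. The annotation of microglia assigned 24 to 253 cells per library to DAM, 901 in all, of which 562 came from the 4 APP/PS1 libraries and 339 from the 6 non-diseased libraries. DAM made up 0.778% and 1.01% of microglia in APP/PS1 and APP/PS1 NLRP3.KO mice at 3 months, 11.7% and 11.5% at 9 months, and 0.431% to 3.79% in non-diseased mice. Nlrp3, the deleted gene, had 0 UMIs in the microglia of all 5 libraries of knockout mice and 34.4 to 53.7 CPM in the other 5, where CPM relates a count to 1000000 UMIs of the cells summed. In DAM of the APP/PS1 libraries, 5 DAM markers summed to 6635 to 16557 CPM against 1059 to 5004 CPM in DAM of non-diseased libraries. In total, 246 cell barcodes occurred in more than 1 library. They belonged to 493 cells, of which 11 were DAM and 6 of these held a UMI of 1 of the 8 genes. In summed counts, fewer cells of a state and less RNA per cell cannot be told apart. Intervals given here are 95% exact intervals and cover counting error only. Those of UMI counts take each UMI as independent, although 1 cell can hold many.

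The genes lie apart in the mouse genome (mm10, GENCODE annotation). Gpnmb is at chr6:49036546-49070929, Lgi2 at chr5:52533517-52566462, Baiap2l2 at chr15:79258195-79285537, Hpse at chr5:100679484-100719716, Bhlhe40 at chr6:108660629-108666925, Etl4 at chr2:19909780-20810713, Tmem51 at chr4:142030992-142084304 and Gm1673 at chr5:33983433-33985013. All 8 are protein-coding, and loci that overlap them and were measured, such as Tmem51os1 on the opposite strand of Tmem51, had 0 UMIs in microglia.

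Promoter sequence is shown for Gpnmb, Hpse and Gm1673, which were found together in single DAM, to let the start regions of genes detected in the same cells be compared. Of the 8 genes, 6 had a promoter in the RefSeq table used (build GRCm38.p6), 3 of them for Etl4. The 250 bases before the start site are printed 5′ to 3′ on the strand of the gene, with CG dinucleotides in capitals. The Gpnmb window is chr6:49036268-49036517 on the plus strand, that of Hpse chr5:100719717-100719966 on the minus strand and that of Gm1673 chr5:33983183-33983432 on the plus strand.
Gpnmb: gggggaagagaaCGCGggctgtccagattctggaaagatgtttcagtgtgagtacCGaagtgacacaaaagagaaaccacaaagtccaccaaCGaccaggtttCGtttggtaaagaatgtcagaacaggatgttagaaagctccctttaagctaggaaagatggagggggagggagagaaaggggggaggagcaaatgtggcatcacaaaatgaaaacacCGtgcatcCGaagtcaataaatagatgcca
Hpse: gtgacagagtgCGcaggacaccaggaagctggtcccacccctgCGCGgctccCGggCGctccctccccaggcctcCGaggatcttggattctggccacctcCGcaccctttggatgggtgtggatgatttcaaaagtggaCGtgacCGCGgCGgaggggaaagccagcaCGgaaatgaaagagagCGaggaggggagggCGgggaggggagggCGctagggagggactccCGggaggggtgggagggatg
Gm1673: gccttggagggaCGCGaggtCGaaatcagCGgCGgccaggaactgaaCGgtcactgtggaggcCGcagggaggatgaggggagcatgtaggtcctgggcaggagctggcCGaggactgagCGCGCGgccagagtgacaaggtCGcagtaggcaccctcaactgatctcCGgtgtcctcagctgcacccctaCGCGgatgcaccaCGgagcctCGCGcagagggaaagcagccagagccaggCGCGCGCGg
The Gpnmb window holds 7 CG dinucleotides at a GC content of 47.2%, close to the median of 6 over all 32851 windows of the table. Those of Hpse and Gm1673 hold 16 and 22, at 66.8% and 67.2% GC, and at least as many were found in 25.4% and 14.8% of all windows. Both strands of the 8 windows were searched for CACGTG, the E-box that Bhlhe40 binds, TCANGTG, a loose form, with any base at N, of the motif of the MITF/TFE family, GGAAGT, read by ETS factors, and TGANTCA, read by AP-1. An E-box was found in 1 Etl4 window and TCANGTG, as TCAAGTG, in that of Tmem51, and there was no other match. Whether factors of the MITF/TFE family read TCAAGTG was not tested. These letters occur in 6.02%, 12.2%, 19.7% and 6.75% of all windows, in the order given.

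Over all microglia the 8 genes were scarce, with 75 UMIs of Tmem51 to 1416 of Gm1673 among the 40547 cells of the 10 libraries. For Gpnmb, the APP/PS1 and APP/PS1 NLRP3.KO libraries of 9 months held 49 and 139 UMIs, or 4.44 and 14.9 CPM. Those of 3 months held 0 and 6 UMIs. The 6 non-diseased libraries held 0, 0, 1, 0, 1 and 3 UMIs (WT, then NLRP3.KO, by age). Both 9-month libraries with amyloid thus stood above all others, whereas the 3-month libraries overlapped with non-diseased ones. Lgi2 had a like profile, with 49 and 138 UMIs at 9 months, 3 and 41 at 3 months, and 0 to 5 in non-diseased libraries. Tmem51 had 20 and 41 UMIs at 9 months (1.81 and 4.38 CPM), 3 and 4 at 3 months and 0 to 2 in non-diseased libraries, and Hpse 67 and 114 at 9 months (6.07 and 12.2 CPM), 3 and 21 at 3 months and 1 to 6 otherwise. At 3 months APP/PS1 mice lay within the non-diseased range for Lgi2 and Hpse (0.157 CPM each), and for Tmem51 APP/PS1 NLRP3.KO mice did (0.114 CPM).

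Baiap2l2 and Etl4 were already above all non-diseased libraries at 3 months. Baiap2l2 had 1.72 CPM in APP/PS1 mice and 2.51 CPM in APP/PS1 NLRP3.KO mice at 3 months, 9.88 and 12.8 CPM at 9 months and 0.0553 to 0.465 CPM in non-diseased libraries. Etl4 had 1.15 and 1.54 CPM at 3 months, 3.90 and 3.10 CPM at 9 months and 0.412 to 0.970 CPM in non-diseased libraries, so that the groups did not overlap for either gene. Bhlhe40 had 1.20 and 0.798 CPM at 3 months and 3.90 and 4.92 CPM at 9 months, against 0.143 to 0.970 CPM in non-diseased libraries, where WT at 9 months lay above APP/PS1 NLRP3.KO at 3 months. Gm1673 was counted in every library, with 3.19 and 5.70 CPM at 3 months and 24.4 and 58.6 CPM at 9 months. Its non-diseased range was 2.06 to 3.54 CPM, which held the 3-month APP/PS1 value.

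**Figure D1:**
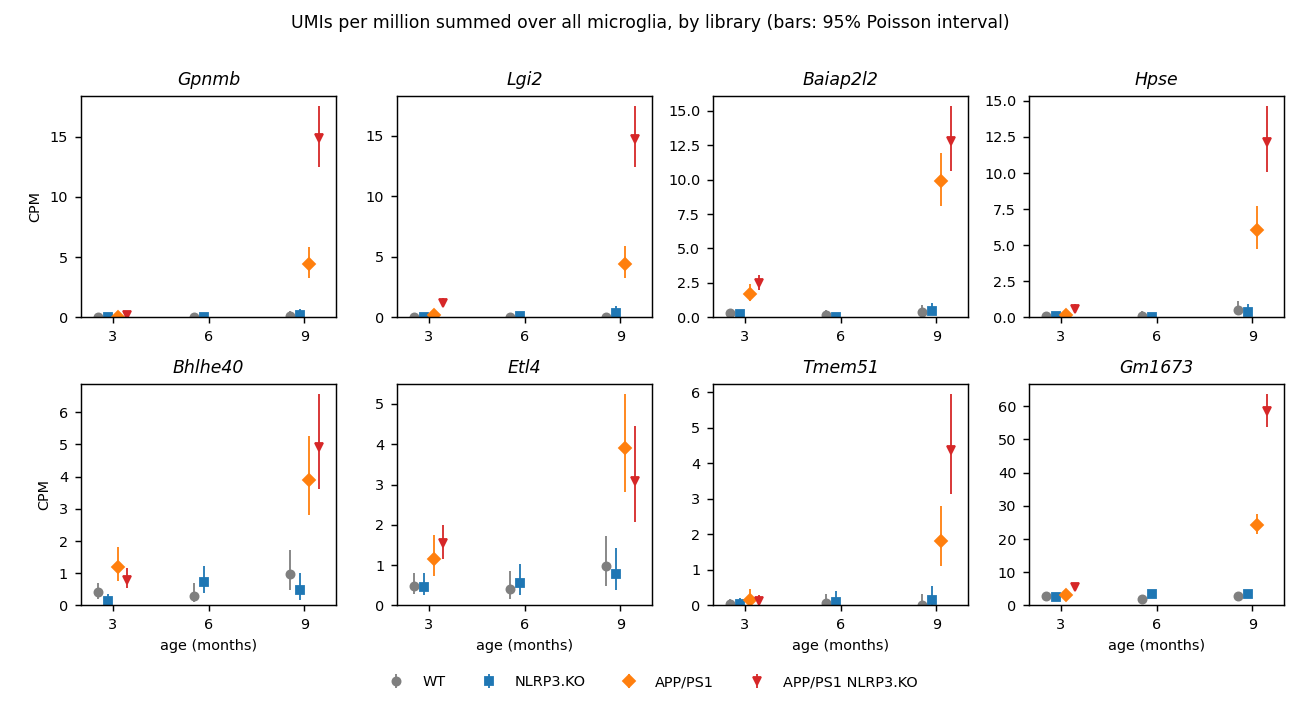
Level in CPM (vertical axis, from 0, a scale per gene) of each gene summed over all microglia of a library, against age in months, with symbols slightly offset by genotype and bars for the 95% Poisson interval. The 9-month APP/PS1 and APP/PS1 NLRP3.KO libraries lie highest for all 8 genes, up to 58.6 CPM for Gm1673, and at 3 months only Baiap2l2 and Etl4 lie above all non-diseased libraries in both.

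Every APP/PS1 library was above every non-diseased library for 2 of the 8 genes, where 0.875% of the 12455 genes with at least 50 UMIs had this order. At 9 months both APP/PS1 libraries were above both non-diseased libraries for all 8, where 15.1% of the same genes had this order. These orders are part of what the genes were chosen by and nothing is read from them. Fitted over the 8 libraries of 3 and 9 months with the pair of the same age and Nlrp3 genotype as block, the log2 fold change with amyloid (descriptive, ± SE, n = 4 against 4) was highest for Gpnmb at 5.82 ± 0.38 and lowest for Etl4 at 1.74 ± 0.24. Between them lay Lgi2 at 5.25 ± 0.55, Tmem51 at 4.24 ± 0.61, Hpse at 3.81 ± 0.47, Baiap2l2 at 3.80 ± 0.38, Bhlhe40 at 2.32 ± 0.33 and Gm1673 at 2.22 ± 0.57. Markers of other cells were summed over the same microglia, in APP/PS1 and then in non-diseased libraries. The sums were 7.58 to 13.6 and 4.32 to 8.52 CPM for border macrophage markers, 7.78 to 19.03 and 5.66 to 11.1 CPM for monocyte markers and 0.784 to 2.18 and 0.340 to 2.23 CPM for T cell markers, and pooled over libraries 5 of 5, 3 of 3 and 3 of 3 of these were higher in APP/PS1 libraries. Of the other lists, 3 of 4 endothelial (Cldn5 at 0), 3 of 5 oligodendrocyte, 2 of 3 B cell, 1 of 3 neutrophil, 1 of 5 astrocyte and 0 of 7 neuron markers were higher, and the summed ranges overlapped. They were 27.0 to 32.0 and 23.2 to 30.6 CPM for endothelial, 51.9 to 64.8 and 51.5 to 61.2 CPM for oligodendrocyte, 32.6 to 52.2 and 35.8 to 50.5 CPM for B cell, 0.634 to 15.5 and 0.387 to 43.0 CPM for neutrophil, 0.906 to 1.83 and 1.12 to 2.16 CPM for astrocyte and 1.92 to 3.29 and 2.65 to 4.70 CPM for neuron markers. Hpse, Bhlhe40 and Tmem51 had higher levels in cells labelled Mono or Mono NC than in DAM, and the part of such cells in these folds was not tested. In this fit 0.0407% of the 12282 genes tested were called higher with amyloid (edgeR's quasi-likelihood test, Benjamini-Hochberg adjusted p under 0.05 and absolute log2 fold change over 1).

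In APP/PS1 libraries, most UMIs of each of these genes but Bhlhe40 came from DAM of the annotation of microglia. In the 4 APP/PS1 libraries DAM were 3.69% of microglia and held 5.32% of microglial UMIs, but they held 99.0% of Gpnmb UMIs (192 of 194), 88.2% of Tmem51, 85.4% of Hpse, 84.0% of Baiap2l2 and of Lgi2, and 72.4% of Gm1673. Etl4 and Bhlhe40 were spread more widely, with 53.4% and 47.9% of their UMIs in DAM, or 36.7% and 35.9% over all 10 libraries. In non-diseased libraries DAM held 1.54% of microglial UMIs and from 0% (Etl4 and Tmem51) to 21.1% (Hpse, 4 of 19) of the UMIs of these genes. Pooled over all 10 libraries, Gpnmb had 33.2 CPM in DAM and 0.00682 CPM in homeostatic microglia (HM), where a single UMI was found among 31953 cells, a ratio of 4874 with a counting interval of 864 to 193502. The ratio of DAM to HM was 1130 (434 to 4193) for Hpse, 448 (245 to 912) for Lgi2 and 379 (140 to 1435) for Tmem51. It was 234 (162 to 349) for Baiap2l2, 158 (83.3 to 332) for Bhlhe40, 71.3 (62.2 to 81.8) for Gm1673 and 58.7 (38.8 to 90.5) for Etl4. DAM were defined by clustering on these cells, so these ratios are a description. In non-diseased libraries, the 339 DAM held 1 UMI of Gpnmb, 1 of Lgi2, 3 of Baiap2l2, 4 of Hpse, 2 of Bhlhe40, 27 of Gm1673 and 0 of Etl4 and Tmem51. Within non-diseased libraries the ratio of DAM to HM was 103 (14.8 to 1143) for Hpse, 17.2 (1.70 to 96.4) for Bhlhe40, 9.13 (1.71 to 31.6) for Baiap2l2 and 8.03 (5.14 to 12.1) for Gm1673, which had 14.7 CPM in DAM against 1.83 CPM in HM. The intervals of Gpnmb, at 51.7 (0.659 to 4060), and Lgi2, at 6.46 (0.146 to 48.2), included 1, and the 0 UMIs of Etl4 and Tmem51 allowed ratios of up to 14.4 and 275. With the larger DAM set of the annotation of all CD45+ cells, the non-diseased ratio was 11.9 (4.20 to 29.8) for Etl4, from 7 UMIs in DAM. For Gpnmb it was 91.8 (7.37 to 4817), but its 3 UMIs lay in 1 cell of NLRP3.KO mice at 9 months. The annotation of microglia labels that cell as interferon-response, so nothing is read from this ratio.

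In other microglial states the levels in CPM were lower than in DAM, each given over all 10 libraries. Bhlhe40 had 6.76 CPM (5.37 to 8.40) in cells of the immediate-early gene state (IEG) and was counted there in 10 of 10 libraries, as was Etl4 with 4.34 CPM (3.24 to 5.69). Gm1673 had 20.4 CPM (16.7 to 24.7) in proliferating microglia (PM) and 8.09 CPM (6.64 to 9.77) in transitioning microglia (TM). Lgi2 had 4.27 CPM (2.68 to 6.47) in PM, but these 22 UMIs came from 5 cells in 3 libraries. Gpnmb had 0 UMIs in TM and IEG, and its 3 UMIs in interferon-response microglia were in 1 cell. In non-diseased libraries alone the order of IEG and DAM was the reverse for Bhlhe40 and Etl4. Bhlhe40 had 5.16 CPM (3.55 to 7.24) in IEG and 1.09 CPM (0.132 to 3.93) in DAM, from 33 and 2 UMIs. Etl4 had 3.75 CPM (2.40 to 5.58) in IEG, 2.33 CPM (1.40 to 3.64) in TM and 0 CPM (0 to 2.01) in DAM. In the larger DAM set of the annotation of all CD45+ cells, Etl4 had 2.30 CPM there. Outside DAM, both 9-month APP/PS1 libraries were above both 9-month non-diseased libraries for 6 of the 8 genes, where 15.9% of the 12425 genes with at least 50 UMIs had this order, and nothing is read from it. The exceptions were Gpnmb, which had 0 UMIs there in these libraries, and Tmem51.

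Within DAM, summed per library, levels were again higher in the amyloid libraries for most of the genes. Baiap2l2 had 101 and 54.2 CPM in DAM of APP/PS1 mice at 3 and 9 months, 115 and 75.2 CPM in APP/PS1 NLRP3.KO mice, and 0 to 4.90 CPM in the 6 non-diseased libraries. Etl4 had 48.3 and 15.7 CPM in APP/PS1, 44.5 and 10.2 CPM in APP/PS1 NLRP3.KO and no UMI in DAM of any non-diseased library. Bhlhe40 had 17.6 and 12.7 CPM in APP/PS1, 16.5 and 21.7 CPM in APP/PS1 NLRP3.KO and at most 3.42 CPM otherwise. These 3 genes did not overlap between the groups. Lgi2 had 8.79 and 22.9 CPM in APP/PS1, 57.7 and 80.7 CPM in APP/PS1 NLRP3.KO and at most 1.90 CPM in non-diseased libraries, and Gm1673 39.5 and 140 CPM, then 137 and 308 CPM, against 0 to 34.3 CPM. Both were also free of overlap, although the 3-month APP/PS1 library, with 24 DAM, stood close to the non-diseased libraries for Gm1673. In the larger DAM set of the annotation of all CD45+ cells, the lowest APP/PS1 and the highest non-diseased library were nearly tied for Gm1673, at 20.96 and 20.94 CPM. For Etl4 they had 8.79 and 5.69 CPM in that set. Gpnmb had 0 and 29.5 CPM in APP/PS1 and 6.59 and 94.2 CPM in APP/PS1 NLRP3.KO, and 1 UMI was found in the 6 non-diseased libraries. Hpse had 4.39 and 36.1 CPM, then 32.9 and 63.7 CPM, and Tmem51 0 and 12.05 CPM, then 4.94 and 25.1 CPM. Gpnmb, Hpse and Tmem51 overlapped because of the 3-month APP/PS1 library. In DAM of a non-diseased library, 3 UMIs correspond to between 5.71 and 18.6 CPM, so a level like that of Bhlhe40 could have been missed in single libraries.

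**Figure D2:**
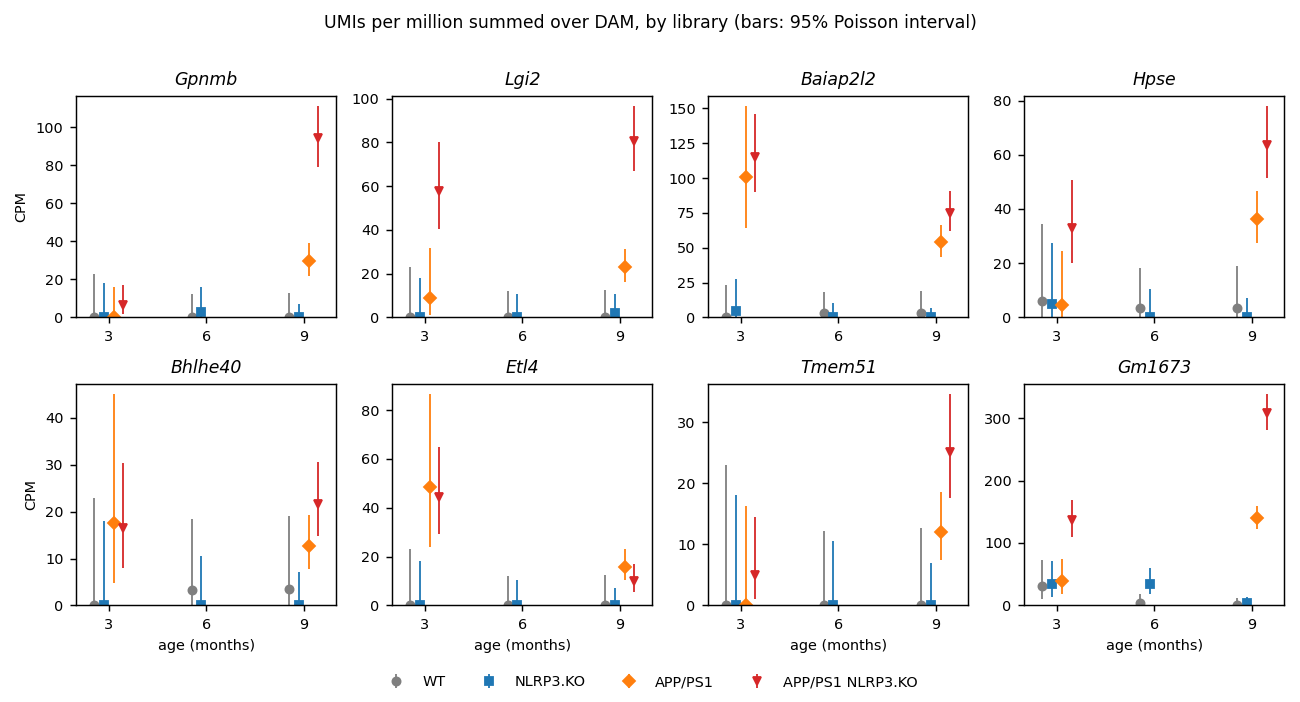
Level in CPM (vertical axis, from 0, a scale per gene) summed over the DAM of each library, against age in months, with symbols slightly offset by genotype and bars for the 95% Poisson interval. Lgi2 and Gm1673 lie higher in APP/PS1 NLRP3.KO than in APP/PS1 DAM at both ages, at 80.7 against 22.9 CPM and 308 against 140 CPM at 9 months, and Etl4 and Baiap2l2 lie lower at 9 than at 3 months in both genotypes.

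For 5 of the 8 genes every APP/PS1 library was above every non-diseased library in DAM, where 2.39% of the 8245 genes with at least 50 UMIs in DAM had this order. At 9 months alone it held for all 8, where 15.8% of these genes had it. As the genes were selected on amyloid or DAM, nothing is read from either count. Of 18 well-known DAM genes measured, 16 had the same order, all but Spp1 and Igf1. Their ratio of APP/PS1 to non-diseased DAM had a median of 2.83, from 1.49 for Trem2 to 163 for Ch25h, with 18.7 for Cst7 and 11.9 for Lpl. The 6 of the 8 genes with UMIs in both groups of DAM had ratios from 13.4 for Gm1673 to 89.8 for Lgi2. Non-diseased DAM held 1 UMI each of Gpnmb and Lgi2, 2 of Bhlhe40, 3 of Baiap2l2, 4 of Hpse and 27 of Gm1673. As the 8 genes were picked for such differences, nothing is read from these ratios beside those of the DAM genes. Markers of 9 other cell types were summed in APP/PS1 and in non-diseased DAM. The sums were 8.79 to 36.2 and 0 to 55.9 CPM for 5 border macrophage markers (Lyve1 at 0), 3.29 to 38.6 and 0 to 20.5 CPM for 3 monocyte markers, 24.7 to 71.8 and 14.7 to 72.3 CPM for 4 endothelial markers (Cldn5 and Ly6c1 at 0), and 0 to 4.22 and 0 to 9.80 CPM for 7 neuron markers (Syt1, Stmn2 and Slc17a7 at 0). They were 34.6 to 43.9 and 33.0 to 118 CPM for 5 oligodendrocyte markers (Mog and Cldn11 at 0), 0 to 3.39 and 0 to 3.30 CPM for 5 astrocyte markers (Gfap and Aqp4 at 0), 0 to 3.29 and 0 to 6.59 CPM for 3 T cell markers, 13.6 to 30.8 and 23.9 to 62.1 CPM for 3 B cell markers (Cd79a and Ms4a1 at 0) and 0 to 13.2 and 0 to 46.1 CPM for 3 neutrophil markers (Retnlg at 0). Each pair of ranges overlapped, although the oligodendrocyte marker Mbp alone had 25.3 to 30.8 CPM in APP/PS1 and 6.21 to 24.5 CPM in non-diseased DAM. The part of other cells in the levels of the 8 genes was not tested. DAM with a doublet score over 0.5 made up 12.6% to 22.8% in APP/PS1 libraries and 2.70% to 11.9% in non-diseased ones, and the part of doublets in these levels was not tested.

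The share of DAM with a UMI differed between the genes and between libraries. Of the 562 DAM in APP/PS1 libraries, Gm1673 was detected in 29.7% (26.0 to 33.7), Baiap2l2 in 25.6% (22.1 to 29.4), Hpse in 16.5% (13.6 to 19.9) and Lgi2 in 14.8% (11.9 to 18.0). Etl4 was detected in 9.96% (7.62 to 12.7), Bhlhe40 in 9.61% (7.30 to 12.4), Tmem51 in 7.12% (5.13 to 9.57) and Gpnmb in 5.52% (3.78 to 7.74). After every cell was thinned to 1500 UMIs, which left out no DAM, these shares were 13.3%, 7.30%, 5.52%, 4.27%, 2.14%, 1.96%, 2.14% and 2.31%, in the same order of genes. The shares of single libraries, given as APP/PS1 and then APP/PS1 NLRP3.KO at 3 months and the same at 9 months, were 25.0%, 47.0% (35.9 to 58.3), 17.8% (13.3 to 23.1) and 26.7% for Baiap2l2, or 8.33%, 13.3%, 5.93% and 6.44% after thinning. For Gm1673 they were 20.8%, 34.9%, 20.9% (16.1 to 26.5) and 39.6% (32.8 to 46.7), or 8.33%, 12.05%, 9.88% and 18.8% after thinning, and for Etl4 25.0% (9.77 to 46.7), 22.9% (14.4 to 33.4), 7.91% (4.90 to 11.9) and 5.45% (2.75 to 9.53), or 4.17%, 4.82%, 1.98% and 0.990% after thinning. Etl4 thus had its lower shares at 9 months in both genotypes, and Gm1673 had its higher shares in APP/PS1 NLRP3.KO mice at both ages. Of the 339 non-diseased DAM, 5.01% held a Gm1673 UMI, at most 1.18% a UMI of any of the others, and none one of Etl4 or Tmem51. By the limit of 3 counts, 0 of 339 allows a share of cells with a UMI, not of cells that express the gene, of up to 0.885%, and the exact upper bound is 1.08%. Median depth was 6383.5 UMIs in APP/PS1 DAM and 5019 in non-diseased DAM.

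T cells, which should lack most of these genes, served as a background for free RNA, with a median of 5810 UMIs in 1598 cells against 5726 in the 901 DAM. Their shares with a UMI were 0.375% for Gpnmb, 0.250% for Baiap2l2, 0.0626% for Etl4, 0.438% for Gm1673 and 0 of 1598 for Lgi2, below those of DAM of all 10 libraries, which were 3.55%, 16.3%, 6.22%, 20.4% and 9.32%. Hpse and Tmem51 were found in 1.38% and 1.25% of T cells against 10.8% and 4.44% of DAM. Bhlhe40 went the other way, with 19.8% of T cells (17.8 to 21.8) and 6.22% of DAM (4.73 to 7.996), or 5.13% and 1.22% after thinning, as T cells express this gene. Its share in DAM cannot be set against a background in this way, while in HM, the microglial state with most cells, it was 0.0313%.

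The 8 genes differed in how their UMIs were spread over cells. Gpnmb was found in 32 DAM, with up to 22 UMIs in a cell, and the 10 richest cells held 70.5% of its UMIs. Lgi2 reached 21 UMIs in a cell and Gm1673 47, and their 10 richest cells held 37.9% and 27.0%. In contrast, 82.1% of the 56 DAM positive for Bhlhe40 held a single UMI, and no cell held more than 4 of Bhlhe40 or Tmem51 or more than 3 of Etl4. Of the 562 APP/PS1 DAM, 315 held none of the 8 genes, 69 held 1 of them, 60 held 2, 51 held 3 and 67 held 4 to 7, and no cell held all 8. After thinning, 419 held none and 52 held 2 or more.

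DAM positive for Gpnmb were also positive for most of the others. Of the 31 such cells in APP/PS1 libraries (0 and 11 in APP/PS1 at 3 and 9 months, 3 and 17 in APP/PS1 NLRP3.KO), 28 held Gm1673 (90.3%, against 26.2% of the 531 without Gpnmb), 25 held Hpse (80.6% against 12.8%), 21 held Baiap2l2 (67.7% against 23.2%) and 17 held Lgi2 (54.8% against 12.4%). Tmem51 was in 41.9% against 5.08%, Bhlhe40 in 38.7% against 7.91% and Etl4 in 32.3% against 8.66%. The positive cells were deeper, with a median of 7551 against 6311 UMIs. Of the thinned cells, 13 held Gpnmb, and 76.9% of these held Gm1673 against 11.8% of the others, and 46.2% held Hpse against 4.55%. Doublet scores over 0.5 were found in 19.4% of the positive and 16.9% of the other cells. All 31 positive cells were also DAM in the annotation of all CD45+ cells, as were 504 of the 531 others (94.9%).

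In the Gpnmb-positive DAM the 5 DAM markers summed to 39860 CPM, against 10598 CPM in the other APP/PS1 DAM. Apoe, a lipid carrier, had 32376 against 8059 CPM. Spp1 (osteopontin) had 1785 against 119 CPM, Igf1 377 against 63.0 CPM, Cst7 4851 against 1948 CPM, Ch25h (cholesterol 25-hydroxylase) 279 against 74.1 CPM and Ctsd, a lysosomal protease, 28014 against 18771 CPM. P2ry12 had 671 against 2199 CPM, Siglech 981 against 2510 CPM and Tmem119 538 against 1066 CPM. These directions were the same in the 9-month libraries of both Nlrp3 genotypes taken alone, where Spp1 had 1841 against 59.8 CPM in 11 and 242 cells of APP/PS1 mice and 1953 against 188 CPM in 17 and 185 cells of APP/PS1 NLRP3.KO mice. Cells of a library are not replicates, and DAM were defined by clustering on genes that may include Gpnmb, so no test was made. Flt1, an endothelial marker, and Pf4, a border macrophage marker, were also higher, at 227 against 22.8 CPM and 108 against 12.5 CPM, while the other markers of both lists (Cldn5, Ly6c1, Pecam1, Mrc1, Cd163, Lyve1 and F13a1) were at 0 in the positive cells.

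**Figure D3:**
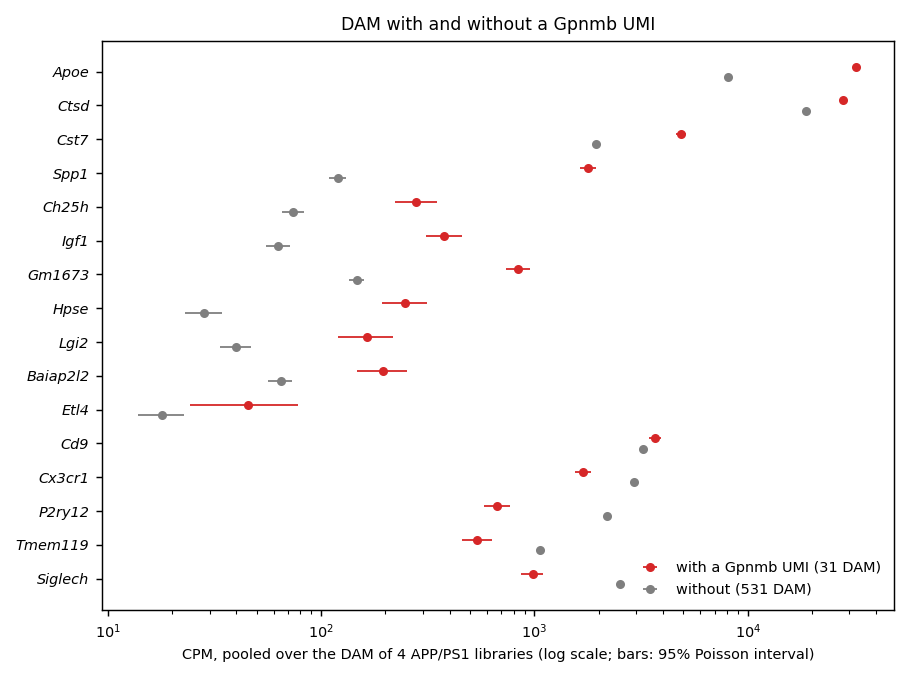
CPM (horizontal axis, log scale) of DAM genes, homeostatic genes and other genes of the group of 8, pooled over DAM of the 4 APP/PS1 libraries with a Gpnmb UMI (31 cells, red) and without (531 cells, grey), with bars for the 95% Poisson interval. Spp1, Igf1, Hpse and Gm1673 lie farther to the right in Gpnmb-positive cells, with Spp1 at 1785 against 119 CPM, and P2ry12 and Siglech farther to the left.

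In the annotation of all CD45+ cells, with 1416 DAM, the genes split into those highest in DAM and those highest in other immune cells. Levels are CPM over all 10 libraries, and orders are among the types with at least 20 cells. Among the types left out, 9 cells labelled Epithelial had 37.4 CPM of Lgi2 and 18.7 CPM of Baiap2l2, from 2 and 1 UMIs. Lgi2 had 22.6 CPM in DAM and next 4.34 CPM in PM, Baiap2l2 34.5 CPM in DAM and 2.76 CPM in IEG, and Gm1673 95.5 CPM in DAM (89.2 to 102) and 47.5 CPM in cells labelled Mono (37.7 to 59.2). The intervals of the neighbours in these orders did not overlap. Gpnmb had 21.6 CPM in DAM (18.7 to 24.9) and 25.8 CPM in pDC (16.5 to 38.4), which overlap. All 24 UMIs in pDC came from 1 of 102 cells, in the 9-month APP/PS1 library, which had a doublet score of 0.999, 22396 UMIs and also 259 UMIs of Apoe and 52 of Cst7. Border-associated macrophages (BAM) had 13 UMIs of Gpnmb in 4 of 725 cells, 9 of them in 1 cell. In the 4 APP/PS1 libraries alone, with 891 DAM, the levels in DAM were 34.0 CPM for Lgi2, 51.6 CPM for Baiap2l2 and 138 CPM for Gm1673, above the next types, PM at 8.04 CPM (4.98 to 12.3), pDC at 5.03 CPM (0.609 to 18.2) and Mono at 37.3 CPM (24.8 to 53.9), without overlap of intervals. Gpnmb had 32.2 CPM (27.8 to 37.1) in DAM and 60.3 CPM (38.6 to 89.7) in pDC there, all from the cell with a doublet score of 0.999. The 2 Baiap2l2 UMIs of pDC came from that cell as well, and IEG had 3.57 CPM (1.90 to 6.10) of Baiap2l2 from 13 UMIs.

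Hpse, Bhlhe40 and Tmem51 were higher in peripheral myeloid or lymphoid cells than in DAM. Orders are again among the types with at least 20 cells, and types with fewer cells, such as migDC, are left out. Hpse had 98.0 CPM in Mono (83.7 to 114), 79.6 in pDC (62.5 to 99.9), 50.7 in Precursors and 38.0 in Mono NC, and DAM stood sixth at 21.4 CPM. The intervals of Mono and pDC overlapped. Bhlhe40 had 121 CPM in Mono NC (98.8 to 146), then 73.4 in cDC2, 64.7 in NK and 64.4 in ILC2, whose intervals overlapped, and DAM were the eleventh type at 9.88 CPM. Tmem51 had 164 CPM in Mono NC (139 to 194), 77.8 in Mono, 37.2 in cDC2 and 31.7 in BAM, with DAM in ninth place at 6.88 CPM. Etl4 had 19.9 CPM (14.4 to 26.7) in Lyve1-positive BAM, 10.8 CPM (8.73 to 13.1) in DAM and 5.25 CPM in IEG, and these intervals did not overlap over the 10 libraries pooled. In the 4 APP/PS1 libraries alone, Etl4 had 20.3 CPM (11.8 to 32.5) in Lyve1-positive BAM and 15.1 CPM (12.1 to 18.5) in DAM, which overlap. There Hpse had 30.7 CPM (26.4 to 35.5) in DAM, the fifth of the types with at least 20 cells, after pDC, Mono, Mono NC (48.4 CPM, 30.0 to 74.0) and Lyve1-positive BAM (34.6 CPM, 23.2 to 49.7), and its interval overlapped with those of Mono NC and Lyve1-positive BAM. Bhlhe40 and Tmem51 had 14.1 and 10.4 CPM in DAM of these libraries, against 161 and 201 CPM in Mono NC. Monocyte markers were among the genes measured in DAM (3.29 to 38.6 CPM in APP/PS1 libraries), and their part in the levels of these 4 genes was not tested.

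**Figure D4:**
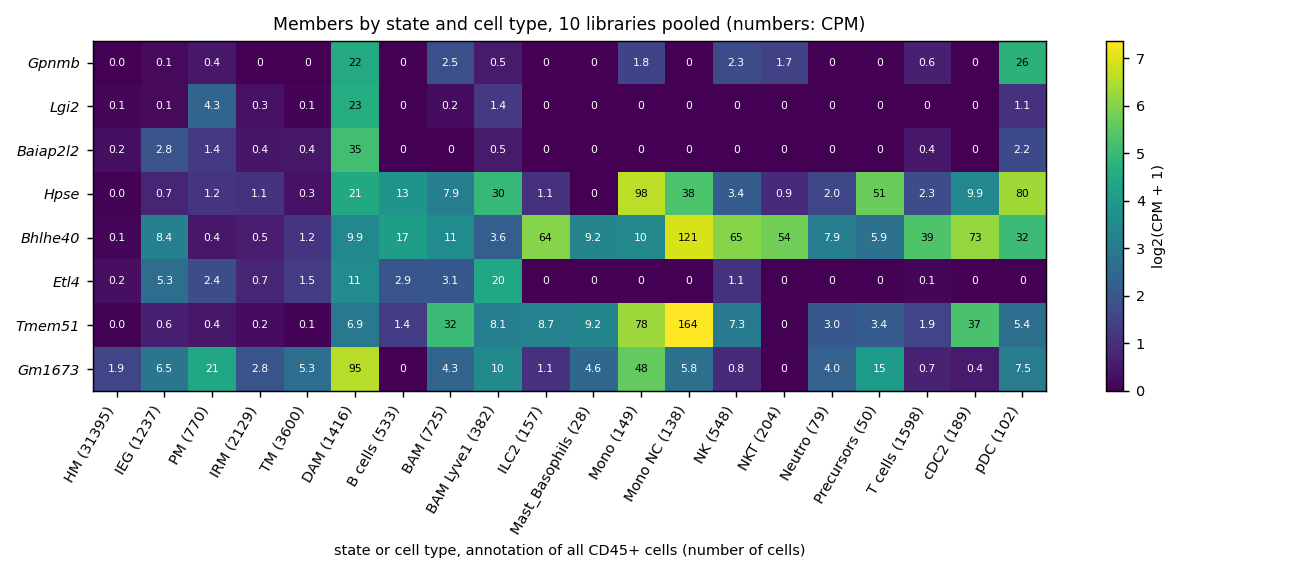
CPM of the 8 genes (rows, numbers in cells of the plot) in each state or cell type of the annotation of all CD45+ cells (columns, number of cells in brackets, types of at least 20 cells), pooled over 10 libraries, with colour for log2(CPM + 1). Lgi2, Baiap2l2 and Gm1673 are highest in DAM (22.6, 34.5 and 95.5 CPM), Hpse in Mono (98.0 CPM) and Bhlhe40 and Tmem51 in Mono NC (121 and 164 CPM).

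Whether Nlrp3 deletion altered these genes was tested over 5 pairs of libraries of the same age and amyloid status, a contrast that played no part in choosing them. Over microglia, Gpnmb, Lgi2, Baiap2l2, Hpse and Tmem51 reached the level the filter on low counts asks for (0.570 CPM) in amyloid libraries only. Their values therefore rest mainly on the APP/PS1 pairs. Each library is 1 pool of mice, and no pool of the same genotype and age was repeated. The p-values therefore measure how the difference varied between pairs of unlike age or amyloid status. Over all microglia none of the 8 genes passed the limits of edgeR's quasi-likelihood test with Benjamini-Hochberg adjustment, as did 0.0242% of the 12383 genes tested. Gpnmb had a log2 fold change of 1.84 ± 0.34 (SE, adjusted p = 0.569, higher in 4 of 5 pairs and tied in the other), Lgi2 of 1.88 ± 0.41 (adjusted p = 0.813) and Tmem51 of 1.05 ± 0.41 (adjusted p = 0.903). Hpse had 0.83, Gm1673 0.73, Baiap2l2 0.31, Etl4 0.02 and Bhlhe40 -0.16, all with adjusted p of 0.903 or more.

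In DAM alone, Gm1673 was higher in libraries of knockout mice. It had a log2 fold change of 1.34 ± 0.21 (edgeR's quasi-likelihood test, adjusted p = 0.00121) and was higher in 5 of 5 pairs. Its levels in NLRP3.KO against WT DAM were 34.3 against 31.1 CPM at 3 months, 34.1 against 3.30 CPM at 6 months and 3.81 against 0 CPM at 9 months, from 0 to 12 UMIs a library. Of the 5789 genes tested 0.0864% were called higher, 5 in all, and of the 8 genes 5 passed the filter on low counts. Lgi2 reached the level this filter asks for (30.5 CPM) only in the 2 APP/PS1 NLRP3.KO libraries, so its log2 fold change of 1.99 ± 0.32 is a description, with no test. It was higher in 3 pairs and had 0 UMIs on both sides in the other 2. Of the other 3, Hpse had 0.93 ± 0.34 (edgeR's quasi-likelihood test, adjusted p = 0.443), Baiap2l2 0.40 ± 0.25 (adjusted p = 0.811) and Etl4 -0.32 ± 0.45 (adjusted p = 0.9504). These 3 reached the level of the filter (30.5 CPM) in amyloid libraries only, so their values rest mainly on the APP/PS1 pairs. The call of Gm1673 was lost with the Wald test of DESeq2 (adjusted p = 0.219) and without the 9-month APP/PS1 pair (adjusted p = 0.149), and it remained without cells of a doublet score over 0.5.

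The APP/PS1 pairs were also compared library by library. Between APP/PS1 NLRP3.KO and APP/PS1 DAM at 9 months (202 and 253 cells) Lgi2 was 3.52 times as high (2.43 to 5.22), Gpnmb 3.19 times (2.29 to 4.52), Gm1673 2.20 times (1.87 to 2.58), Tmem51 2.08 times (1.18 to 3.78) and Hpse 1.76 times (1.26 to 2.48). Baiap2l2 was 1.39 times as high (1.04 to 1.85), while the intervals of Bhlhe40 at 1.71 (0.959 to 3.13) and Etl4 at 0.649 (0.320 to 1.27) included 1. With the larger DAM set of the annotation of all CD45+ cells, the 9-month interval of Baiap2l2 included 1 as well, at 1.23 (0.929 to 1.62). At 3 months (83 and 24 cells) the ratio was 7.50 (1.20 to 311) for Hpse, 6.56 (1.69 to 56.3) for Lgi2 and 3.46 (1.74 to 7.82) for Gm1673. The intervals of Baiap2l2 at 1.14 (0.703 to 1.92), Bhlhe40 at 0.937 (0.270 to 4.09) and Etl4 at 0.920 (0.442 to 2.06) included 1, and Gpnmb and Tmem51 had 4 and 3 UMIs against 0. These ratio intervals compare single libraries and hold counting error only. By cells, 17 APP/PS1 NLRP3.KO and 11 APP/PS1 DAM held Gpnmb at 9 months. These are 8.42% (4.98 to 13.1) and 4.35% (2.19 to 7.65), which overlap. Intervals of the shares in percent also overlapped for Tmem51 (8.17 to 17.7 and 2.76 to 8.63) and Baiap2l2 (20.8 to 33.4 and 13.3 to 23.1). Those of Lgi2 (15.4 to 27.0 and 5.21 to 12.4) and Hpse (19.0 to 31.3 and 8.48 to 16.9) did not. Nor did those of Gm1673 (32.8 to 46.7 and 16.1 to 26.5). Gpnmb was under the filter in the DAM fit, and in the 4 alternatives in which it was fitted its log2 fold change was 1.74 to 1.79, given as a description. DAM with a doublet score over 0.5 were 22.8% in APP/PS1 NLRP3.KO and 12.6% in APP/PS1 mice at 9 months.

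Whether the effect of Nlrp3 deletion differed with amyloid was tested as an interaction over the 8 libraries of 3 and 9 months. No gene of the 12282 tested was called (0.0%) by edgeR's quasi-likelihood test, 353 had an unadjusted p under 0.05 and DESeq2 called 4. Of the 8 genes, 5 (Gpnmb, Lgi2, Baiap2l2, Hpse and Tmem51) reached the level the filter asks for (0.624 CPM) in amyloid libraries only, so estimates are given as a description. They ran from -0.24 for Tmem51 to 1.64 for Hpse on the log2 scale, with standard errors of 0.51 to 2.19.

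**Figure D5:**
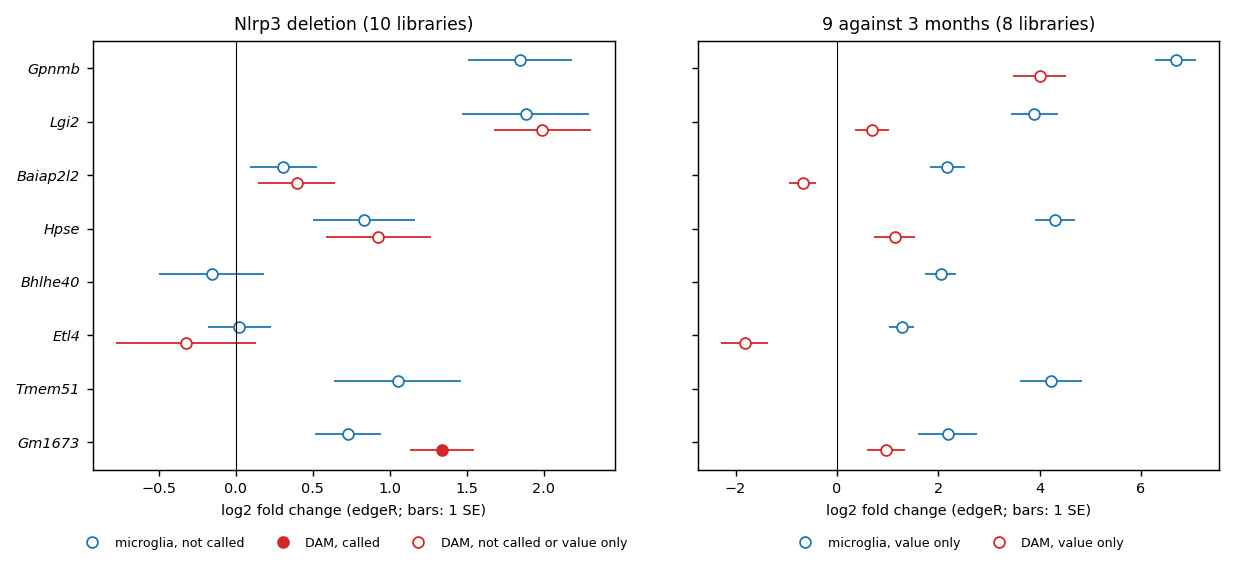
Log2 fold changes with 1 SE (horizontal axis, edgeR) of the 8 genes for Nlrp3 deletion (left, 10 libraries) and for 9 against 3 months (right, 8 libraries), in all microglia (blue) and in DAM (red), with genes under the filter left out. On the left, the filled symbol is the gene past the limits, Gm1673 (1.34) in DAM, where Lgi2 (1.99) is a value without a test, and on the right values are shown without calls, from 1.28 for Etl4 to 6.69 for Gpnmb in microglia and from -1.82 for Etl4 to 4.00 for Gpnmb in DAM.

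Over all microglia, 9 and 3 months were compared in 4 pairs of libraries of the same genotype, 2 of them with amyloid, and 3.28% of 12282 genes were called higher at 9 months (edgeR's quasi-likelihood test). The genes were chosen to be high in amyloid libraries, and Gpnmb, Hpse and Tmem51 passed the filter on low counts through those of 9 months alone, so the values of all 8 are a description, with no test. The log2 fold change (± SE) was 6.69 ± 0.40 for Gpnmb, 4.31 ± 0.39 for Hpse, 4.23 ± 0.62 for Tmem51 and 3.90 ± 0.47 for Lgi2. For Gm1673 it was 2.19 ± 0.58, for Baiap2l2 2.18 ± 0.34, for Bhlhe40 2.05 ± 0.30 and for Etl4 1.28 ± 0.25. The share of DAM moved over the same ages, being 11.5% and 11.7% of microglia at 9 months against 0.778% and 1.01% at 3 months in the amyloid libraries, and its part in these differences was not tested.

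Within DAM the ages were compared in a fit added after the data had been seen. Of 6331 genes, 0.885% were called higher and 1.23% lower at 9 months, and 6 of the 8 genes passed the filter. Gpnmb passed the filter through the 9-month amyloid libraries, with 49 and 139 UMIs there and 0 to 4 in the 6 others, so its log2 fold change of 4.00 ± 0.52 is a description. Etl4 reached the level the filter asks for (24.4 CPM) only in the 3-month amyloid libraries, so its log2 fold change of -1.82 ± 0.46 is a description too. In single libraries Etl4 at 9 months was 0.324 times (0.155 to 0.727) its 3-month level in APP/PS1 DAM and 0.229 times (0.113 to 0.445) in APP/PS1 NLRP3.KO DAM, and Baiap2l2 0.536 times (0.336 to 0.889) and 0.653 times (0.480 to 0.893). With the larger DAM set of the annotation of all CD45+ cells, the APP/PS1 intervals included 1, at 0.532 (0.247 to 1.27) for Etl4 and 0.780 (0.479 to 1.33) for Baiap2l2. Those of APP/PS1 NLRP3.KO did not, at 0.245 (0.132 to 0.446) and 0.575 (0.425 to 0.782). In the fit, Hpse had 1.14 ± 0.40, Gm1673 0.96 ± 0.38, Lgi2 0.69 ± 0.33 and Baiap2l2 -0.68 ± 0.27, none of them called, and as Hpse, Lgi2 and Baiap2l2 reached that level in amyloid libraries only, these are descriptions as well. With age and batch in the same libraries, the part of either in these differences cannot be told apart.

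In other cell types only the most abundant of the 8 genes could be tested for amyloid, in the pairs of 3 and 9 months. In BAM, where 0.27% of 5928 genes were called, Tmem51 had a log2 fold change of -0.11 ± 0.30 (edgeR's quasi-likelihood test, adjusted p = 0.976). In T cells, where 0.162% of 6174 genes were called, Bhlhe40 had -0.24 ± 0.27 (adjusted p = 0.897). Over microglia their log2 fold changes were 4.24 and 2.32, and the difference between cell types was not tested.

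Genes related to the 8 by family or function were counted in the same fits. The lists were relatives of Gpnmb with the MITF/TFE factors and its partners (8 genes), heparan sulfate synthesis and turnover (29), the LGI family with its ADAM receptors (7), I-BAR proteins with partners (9), relatives of Bhlhe40 with the clock (15) and possible partners of Gm1673 (3). Depending on the fit, 3 to 7, 6 to 20, 0 to 3, 3 to 6, 2 to 15 and 0 of them were tested, in this order. None was called in any of the 7 fits, where 0.0% (the interaction) to 3.91% (9 against 3 months in microglia) of all genes were, and 0.121% for Nlrp3 deletion in DAM. At an adjusted p under 0.05 with a smaller fold change, 5 of the 20 heparan sulfate genes tested were lower at 9 than at 3 months in microglia (Ext1, Extl3, Ndst2, Hs6st1 and Ids, at -0.31 to -0.40 on the log2 scale) and Sdc3 was higher, at 0.54. In the clock list 2 genes were lower, and 1 gene each of the Gpnmb, I-BAR and clock lists was higher. In this fit 4743 of all 12282 genes had an unadjusted p under 0.05 (edgeR's quasi-likelihood test). The share of all genes at the adjusted limit alone was not counted, so nothing is read from these counts. With amyloid, their medians over the genes tested were 0.06, 0.04, -0.14, -0.04 and 0.00 on the log2 scale in the order of the first 5 lists, beside 0.00 over all genes, and none of the last was testable. Of 18 well-known DAM genes, 1 was called higher with amyloid, Ch25h, where 0.0407% of the 12282 genes tested were. Their median was 0.89, with 18 of 18 above 0, beside the median of 0.00 over all genes. In DAM, Pmel, the closest relative of Gpnmb, Hpse2, the relative of Hpse, Lgi1 and Lgi3 had 0 UMIs. Of the 29 heparan sulfate genes, 7 had 0 UMIs in DAM, and 3 had every APP/PS1 library above every non-diseased library. Of the 16 with at least 50 UMIs in DAM 2 had this order, beside the 2.39% given above. Sulf2, a sulfatase that trims the chains, had 32.0 CPM in DAM of APP/PS1 libraries and 6.53 CPM in non-diseased DAM, and Gusb, a lysosomal glucuronidase, 636 against 244 CPM. The remaining gene, Hs3st1, a sulfotransferase, had 4.53 against 0 CPM, from 18 UMIs. In the other 5 lists no gene had this order. Bhlhe41, the closest relative of Bhlhe40, is abundant in microglia and had 286 against 292 CPM.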

How the data were processed

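The authors processed the reads of each library with Cell Ranger against mm10, removed outlier cells by median absolute deviation with Scater and clustered cells with Seurat after harmony. They deposited counts of UMIs per gene and cell, not normalized, with 2 annotations (all CD45+ cells and microglia), a deposited doublet score per cell and a batch number. Of the sample names in the matrix, 2 (6897 of 52369 cells) have no counterpart in the sample labels and stayed out. Here counts were summed per library and state, given as CPM of the cells summed, and tested with edgeR 4.0.16 (quasi-likelihood F test, TMM, filterByExpr, Benjamini-Hochberg adjustment over all genes tested), with pairs of libraries as blocks except in the interaction fit. A call needed an adjusted p under 0.05 with a log2 fold change above 1 in size. DESeq2 1.42.0, DESeq2 size factors, no filter, cells without a doublet score over 0.5, other cell sets and each pair or library left out were alternatives. Doublets were not removed in the main results. Shares were recomputed after thinning to 1500 UMIs. The genes and lists were chosen with earlier results of these data known. In simulated counts in which 200 genes differed by 2 on the log2 scale, each fit recovered 100% of them, and at most 6.98% of calls were false, in the interaction fit over 12282 genes. The changed genes were not drawn from the lowest expressed genes tested, so the recovery of rare genes was not tested. Apart from the contrast tested, the simulated libraries had no differences by age, amyloid or Nlrp3 genotype, so recovery beside such differences was not tested either. The genes named are the 8 genes, the listed genes, and Flt1 and Pf4, which were named after their values were seen. Of the listed genes, 2 had no row matched and were not analysed here.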

Additional observations from a re-analysis of the deposited data

Results flagged for a closer look

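Hpse stood out because its libraries moved in opposite directions in the 2 backgrounds. Over all microglia, Hpse was higher with Nlrp3 deletion in both APP/PS1 pairs, reaching 12.2 CPM in APP/PS1 NLRP3.KO mice at 9 months against 6.07 CPM in APP/PS1 mice, and lower in all 3 non-diseased pairs. In the interaction fit of Nlrp3 deletion and amyloid no gene was called, and the estimate for Hpse, 1.64 ± 0.97 on the log2 scale, is a description, as Hpse passed the filter through amyloid libraries. The non-diseased libraries held 1 to 6 UMIs each. In DAM, the 9-month level of Hpse was 63.7 CPM with the deletion and 36.1 CPM without it in mice with amyloid, and the 3-month level 32.9 against 4.39 CPM. The lower values of NLRP3.KO than WT DAM rest on 0 or 1 UMI a library, with 1 against 1 UMI at 3 months and 0 against 1 at 6 and at 9 months, and the difference was not tested.

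Between 9 and 3 months, Hpse in DAM was higher in both amyloid genotypes (36.1 against 4.39 CPM in APP/PS1 mice) and lower in both non-diseased genotypes, where at most 1 UMI was counted in a library, and this difference was not tested. Gm1673 in DAM had the same order, with 140 against 39.5 CPM in APP/PS1 mice at 9 and 3 months and lower values at 9 months in WT (0 against 31.1 CPM) and NLRP3.KO mice (3.81 against 34.3 CPM), and this difference was not tested.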

How the results depend on the processing

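The numbers of genes called moved with the method. The Wald test of DESeq2 called 6 genes in place of 3 for Nlrp3 deletion in microglia, 2 in place of 7 for Nlrp3 deletion in DAM, 22 in place of 5 for amyloid, 4 in place of 0 for the interaction, 4 in place of 16 for amyloid in BAM and 6 in place of 10 in T cells. Without the filter on low counts, 24 genes were called for Nlrp3 deletion in DAM, 46 for amyloid in BAM and 41 in T cells, and without cells of a doublet score over 0.5, 5 in T cells. In HM alone, 0 genes were called for amyloid (added after seeing the data) and 225 in place of 480 between ages, and in DAM alone 134. Leaving out 1 pair or library gave 2 to 8 genes for Nlrp3 deletion in microglia, 3 to 19 in DAM (3 without the 9-month APP/PS1 pair, 19 without the 3-month non-diseased pair), 0 to 11 for amyloid (0 without either NLRP3.KO pair), 0 to 164 for the interaction (164 without the 3-month WT library), 246 to 461 between ages (246 without the APP/PS1 pair), 4 to 16 in BAM and 0 to 10 in T cells (0 without the 9-month NLRP3.KO pair). The causes were not tested.

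In DAM alone the log2 fold changes with age of Baiap2l2 and Etl4 were -0.68 and -1.82, opposite to all microglia, and in HM alone that of Gm1673 was -0.083. In non-diseased libraries alone, the log2 difference between DAM and HM was -2.27 for Etl4 and -0.59 for Tmem51, values set by the prior count because both had 0 UMIs in DAM, so no direction is read. The counting interval of the ratio reached 14.4 for Etl4 and 275 for Tmem51, and in the annotation of all CD45+ cells Etl4 had 7 UMIs in non-diseased DAM and a ratio of 11.9 (4.20 to 29.8). Depth limits all values of non-diseased DAM, where a library held 160958 to 525423 UMIs.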

Other observations

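The genes whose level over microglia was most like the mean of the 8 genes, each centred and scaled, across the 10 libraries were Fabp3 (Pearson's r of 0.998 on log2(CPM + 1)), Psat1 (0.985), Ccl6 (0.979), Cst7 (0.978) and Fabp5 (0.975), among 11385 genes with at least 200 microglial UMIs. Fabp3 and Fabp5 encode fatty acid-binding proteins and Psat1 an enzyme of serine synthesis. Fabp3 had 1.46 to 13.3 CPM in APP/PS1 libraries and 0.941 to 1.39 CPM in non-diseased ones, and Psat1 16.7 to 45.1 and 14.7 to 17.6 CPM. Across 20 states and cell types the order was another, led by Flt1 (0.694), Cck (0.685), Acaca (0.643), Ch25h (0.625) and Rab7b (0.610). That mean includes the Gpnmb level of pDC, which came from 1 cell with a doublet score of 0.999. Without cells of a doublet score over 0.5, an alternative added after seeing the data, the order was Cck (0.738), Flt1 (0.685), Acaca (0.621), Crlf2 (0.617) and Rab7b (0.593). The libraries share ages and the share of DAM, so these values are a description.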
